A study of Homo sapiens with 9 samples.

Results

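The ELR-motif CXC chemokines are small secreted proteins that carry the residues glutamate, leucine and arginine just before their CXC cysteines. The members examined were the genes CXCL8, CXCL1, CXCL2, CXCL3, CXCL5 and CXCL6, and every probe set of the array whose only gene symbol in the platform annotation was one of these names was taken. That gave 11 probe sets of 6 genes, among 41091 probe sets of 19775 genes with a single symbol. Expression was measured in LiSa-2 cells, an established human liposarcoma line grown on plastic, on 9 Affymetrix arrays. There were 3 groups of 3 arrays, namely cells given 400 µg/mL hyaluronidase from bovine testes (HAase, which cuts the matrix sugar hyaluronan) for 24 h, the same dose for 6 h, and phosphate-buffered saline (PBS) without enzyme. The PBS samples were collected at 24 h, so a difference between 6 h of HAase and PBS cannot be told apart from one of harvest time. The same holds for a difference between 24 h and 6 h of HAase. All groups were cells of the same line, and no group with inactivated enzyme was analysed here. Whether replicates came from different culture dishes is not stated in the labels. All p-values therefore reflect only how far these arrays varied, and that variation may be technical.

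The ELR-motif CXC chemokines attract neutrophils and promote the growth of blood vessels, and they act through the receptors CXCR1 and CXCR2. In connective tissue cells they are made after signals such as IL1 or TNF. Transcription is then driven by NF-kappaB, AP-1 and C/EBP factors at the proximal promoter. Their mRNAs carry AU-rich elements that proteins such as ZFP36 bind to hasten decay.

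The promoters are shown first because the family shares a proximal element while its members differed widely in signal. All 6 genes matched the RefSeq promoter table (build GRCh38.p14), which gives 250 bases before and 50 after each annotated start, and all lie on chromosome 4. The letters searched on both strands were GGAATTTCC (a form of the NF-kappaB, or kappa-B, site), TGANTCA (AP-1) and TATAAA (the TATA box), and matches are in capitals. None of the matches overlapped another.
CXCL8, chr4:73740319-73740618, plus strand: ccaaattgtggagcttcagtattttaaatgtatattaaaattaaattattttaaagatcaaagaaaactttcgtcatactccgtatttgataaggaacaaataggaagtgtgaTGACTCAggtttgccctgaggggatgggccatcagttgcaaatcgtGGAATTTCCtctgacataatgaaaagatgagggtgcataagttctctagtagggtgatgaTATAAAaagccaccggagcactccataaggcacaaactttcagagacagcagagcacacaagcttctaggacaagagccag
CXCL2, chr4:74099146-74099445, minus strand: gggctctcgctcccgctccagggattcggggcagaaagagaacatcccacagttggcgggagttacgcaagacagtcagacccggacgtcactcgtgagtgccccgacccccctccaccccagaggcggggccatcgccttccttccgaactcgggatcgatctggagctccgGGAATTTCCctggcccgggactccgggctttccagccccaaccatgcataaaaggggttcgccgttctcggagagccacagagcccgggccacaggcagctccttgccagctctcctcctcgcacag
CXCL3, chr4:74038640-74038939, minus strand: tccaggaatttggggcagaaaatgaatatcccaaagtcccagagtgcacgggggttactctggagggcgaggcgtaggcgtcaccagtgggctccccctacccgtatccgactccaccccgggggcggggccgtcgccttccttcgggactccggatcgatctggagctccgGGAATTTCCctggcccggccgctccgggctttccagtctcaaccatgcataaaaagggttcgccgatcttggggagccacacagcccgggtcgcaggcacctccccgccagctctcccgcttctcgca
CXCL1, chr4:73869143-73869442, plus strand: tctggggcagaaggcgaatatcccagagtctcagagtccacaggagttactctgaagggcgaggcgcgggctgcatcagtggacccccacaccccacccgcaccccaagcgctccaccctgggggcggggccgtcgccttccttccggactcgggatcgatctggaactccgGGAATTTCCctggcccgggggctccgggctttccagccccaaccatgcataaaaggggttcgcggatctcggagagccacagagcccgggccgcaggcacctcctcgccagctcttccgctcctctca
CXCL5, chr4:73998628-73998927, minus strand: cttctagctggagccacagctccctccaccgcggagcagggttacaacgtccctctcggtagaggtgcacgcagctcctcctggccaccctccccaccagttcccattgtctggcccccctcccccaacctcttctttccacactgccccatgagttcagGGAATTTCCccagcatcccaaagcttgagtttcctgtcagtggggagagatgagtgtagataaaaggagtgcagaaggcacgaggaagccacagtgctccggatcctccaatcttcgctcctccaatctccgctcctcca
CXCL6, chr4:73836428-73836727, plus strand: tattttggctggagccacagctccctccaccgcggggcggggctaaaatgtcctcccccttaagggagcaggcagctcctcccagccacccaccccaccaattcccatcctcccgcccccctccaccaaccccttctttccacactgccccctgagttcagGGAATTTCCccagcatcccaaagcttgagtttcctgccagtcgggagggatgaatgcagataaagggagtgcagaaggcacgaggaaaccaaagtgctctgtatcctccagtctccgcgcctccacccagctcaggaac

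The kappa-B letters were found once in each of the 6 promoters, on the strand of the gene. They were found in 162 of the 35116 promoters of the table, or 0.461%. The first base of the match lay 91 bases before the start in CXCL8, 77 in CXCL2, 78 in CXCL3, 78 in CXCL1, 90 in CXCL5 and 89 in CXCL6. The base just before the match made the run GGGAATTTCC in CXCL1, CXCL2, CXCL3, CXCL5 and CXCL6, and TGGAATTTCC in CXCL8. CXCL8 alone among the 6 held the AP-1 letters, 137 bases before its start, and the TATA letters, 31 bases before it, which are found in 7.71% and 11.5% of all promoters. The promoters also fell into sequence pairs and triplets: the longest identical run was 45 bases between CXCL5 and CXCL6, 42 between CXCL1 and CXCL2, and 37 between CXCL2 and CXCL3. CXCL8 shared no run longer than 9 bases with any of the others. A match is a description of the letters in this window, not evidence that a factor bound there. Only exact letters were counted. Near matches to the TATA letters, such as cataaa in CXCL1, CXCL2 and CXCL3 and gataaa in CXCL5 and CXCL6, were not.

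**Figure D1:**
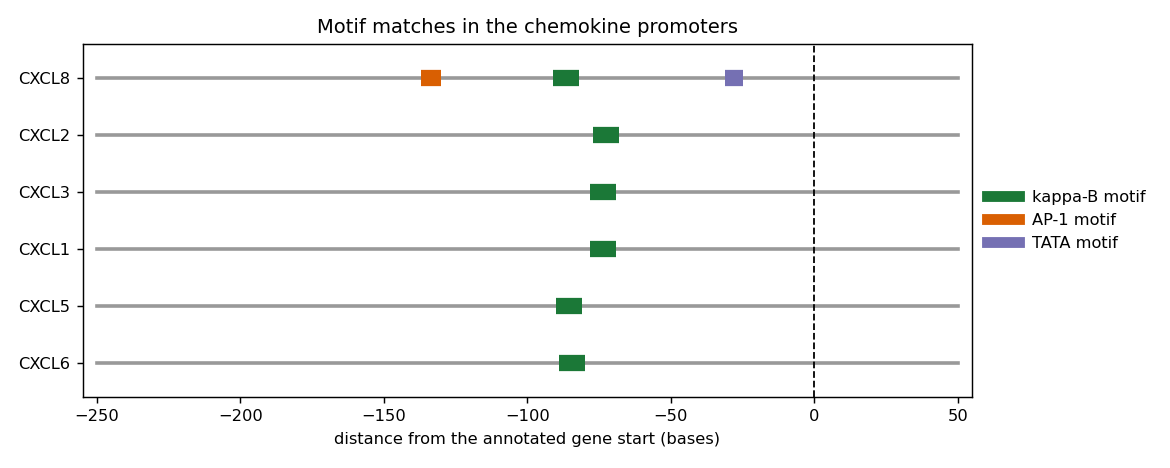
Positions of the motif matches in the 6 promoters. The horizontal axis is the distance from the annotated start in bases, each grey line is 1 promoter window, and coloured blocks are matches. The first base of the kappa-B block lies between 77 and 91 bases before the start in every promoter, and only the CXCL8 line carries the AP-1 and TATA blocks.

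Signals are linear intensities scaled by the authors to a common level per array. Depth does not apply to arrays, and their number limits the precision. The median signal of an array lay between 55.8 and 61.3. As a gauge of background, 27 probe sets for Bacillus subtilis transcripts were used, the brightest of which read between 34.2 and 65.0 on an array, and a probe set at or below that value on an array has only an upper bound there. By this gauge CXCL8, CXCL2 and CXCL3 were measurable after HAase, while CXCL1, CXCL5 and CXCL6 were not, apart from 1 CXCL1 array. In the HAase 24 h group 4 of the 11 probe sets exceeded the control on all 3 arrays and 2 did so on some, in the HAase 6 h group 4 exceeded it on all 3 and none on some, and in PBS 1 exceeded it on all 3 and 2 on some.

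**Figure D2:**
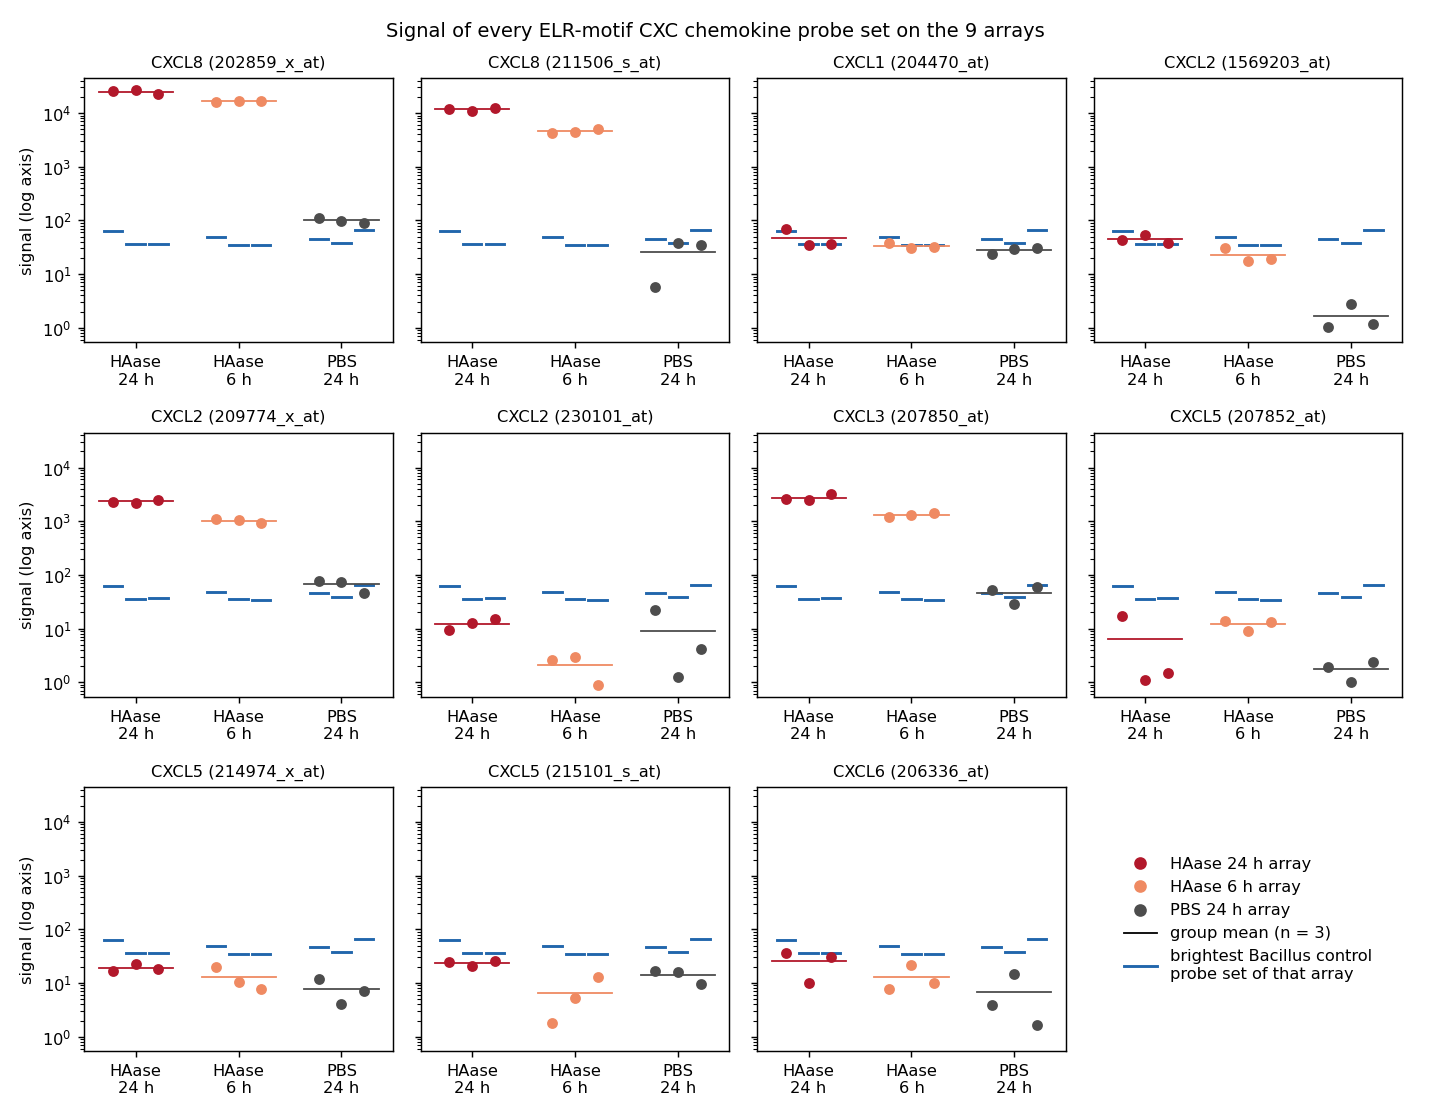
Signal of each of the 11 probe sets on each of the 9 arrays, on a log axis. Points are arrays, thin lines are group means (n = 3), and blue dashes mark the brightest Bacillus control of the same array. Both CXCL8 probe sets, 1 of the 3 CXCL2 probe sets and the CXCL3 probe set rise far above the blue dashes after HAase, whereas the CXCL1, CXCL5 and CXCL6 probe sets stay at or below them on nearly every array.

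Fold changes were taken from a linear model (limma) on log2(signal + 16), fitted to all 9 arrays and to the 28764 named probe sets whose mean signal reached the 30th percentile, a signal of 26.3. A probe set was called at a Benjamini-Hochberg adjusted p under 0.05. Of the 11 chemokine probe sets 5 reached that level and 6 did not. Those tested were the 2 of CXCL8, 209774_x_at of CXCL2, and those of CXCL3 and CXCL1. The second CXCL8 probe set passed the filter only through its HAase arrays, since its PBS mean was 26.2, so the count that follows is a description. Called higher were 4 at 24 h, the same 4 at 6 h and the same 4 at 24 h relative to 6 h, and none was called lower. Over all probe sets tested, 13.3% were called higher and 17.1% lower at 24 h, 11.9% and 18.4% at 6 h, and 12.1% and 10.1% at 24 h relative to 6 h. Groups without overlap, in either direction, were common: 44.8% of all probe sets tested at 24 h and 45.8% at 6 h against PBS. Between 24 h and 6 h the share was 38.9%. Both comparisons with PBS use the same PBS arrays, so their values are given side by side and are not independent.

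CXCL8, also known as interleukin-8, is a strong attractant for neutrophils. Its probe set 202859_x_at read 25817, 26399 and 23080 on the HAase 24 h arrays. It read 16120, 16947 and 16593 on the HAase 6 h arrays, against 112.7, 97.6 and 91.0 on the PBS arrays. The 3 groups did not overlap, and PBS too lay above the control level on all 3 arrays. Means were 25099 ± 1772 at 24 h, 16553 ± 415 at 6 h and 100.4 ± 11.1 in PBS (SD, n = 3 each). CXCL8 was 143-fold higher at 6 h than in PBS (log2 fold change 7.16 ± 0.09 SE, limma adjusted p = 1.79e-08). The 24 h value was another 1.51-fold above that of 6 h (log2 fold change 0.60, 95% interval 0.39 to 0.80, limma adjusted p = 0.00257).

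The second CXCL8 probe set, 211506_s_at, gave the same order of the groups. It read 11691, 10879 and 12483 on the HAase 24 h arrays and 4240, 4532 and 4980 on the HAase 6 h arrays, against 5.68, 37.5 and 35.3 on the PBS arrays. All 3 PBS arrays were at or below the control level, so the change is a bound: at least 179.9-fold at 24 h and at least 70.7-fold at 6 h (limma adjusted p = 1.15e-06 and 4.18e-06, for a probe set that the filter kept through its HAase arrays). By this probe set CXCL8 was 2.55-fold higher at 24 h than at 6 h (log2 fold change 1.35, 95% interval 0.62 to 2.08, limma adjusted p = 0.0192). The interval of this step overlaps that of the first probe set, 0.39 to 0.80. The call was lost without HAase 24 h replicate 1 (limma adjusted p = 0.0520) or 3 (0.0591), without HAase 6 h replicate 1 (0.0609) or 2 (0.0544), and with a pseudocount of 1 (0.173), at log2 values between 1.29 and 1.35.

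CXCL3 and CXCL2, neutrophil attractants that act mainly through CXCR2, followed the same order at lower fold changes. The CXCL3 probe set 207850_at read 2592, 2455 and 3161 on the HAase 24 h arrays and 1176, 1286 and 1450 on the HAase 6 h arrays, against 52.6, 28.5 and 58.5 on the PBS arrays. No group overlapped another, but only 1 PBS array lay above its control level, so the size of the rise is uncertain: with pseudocounts of 64 and 1 the log2 fold change was 4.67 and 5.90 at 24 h, and 3.64 and 4.84 at 6 h. In the model CXCL3 was 44.8-fold higher at 24 h than in PBS (log2 fold change 5.49 ± 0.20 SE) and 21.5-fold higher at 6 h (4.43 ± 0.20), with limma adjusted p = 9.07e-07 and 3.86e-06. It was 2.08-fold higher at 24 h than at 6 h (log2 fold change 1.06 ± 0.20 SE, limma adjusted p = 0.00793).

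CXCL2 had 3 probe sets, which did not give the same picture. Probe set 209774_x_at read 2303, 2211 and 2486 on the HAase 24 h arrays and 1082, 1066 and 924 on the HAase 6 h arrays, against 78.1, 75.2 and 46.2 on the PBS arrays. The groups did not overlap, and 2 of the 3 PBS arrays lay above the control level. By this probe set CXCL2 was 28.9-fold higher at 24 h than in PBS (log2 fold change 4.85 ± 0.16 SE, limma adjusted p = 5.38e-07). It was 12.8-fold higher at 6 h (3.68 ± 0.16, 3.21e-06), and 2.26-fold higher at 24 h than at 6 h (1.18 ± 0.16, 0.00168).

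The other CXCL2 probe sets stayed near background. Probe set 1569203_at read 43.9, 52.9 and 38.4 on the HAase 24 h arrays and 31.1, 17.5 and 19.4 on the HAase 6 h arrays, against 1.02, 2.76 and 1.19 on the PBS arrays. Its groups did not overlap, yet only 2 arrays, both of HAase 24 h, exceeded the control level. Probe set 230101_at read 9.54 to 15.0 at 24 h, 0.890 to 2.89 at 6 h and 1.25 to 22.2 in PBS, all below the control level. In Affymetrix naming the suffix x marks probe sets in which some probes may also match other genes, and s marks those that match several transcripts. CXCL2 and CXCL3 are close paralogs, so how far 209774_x_at reads CXCL2 alone is uncertain and was not tested.

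**Figure D3:**
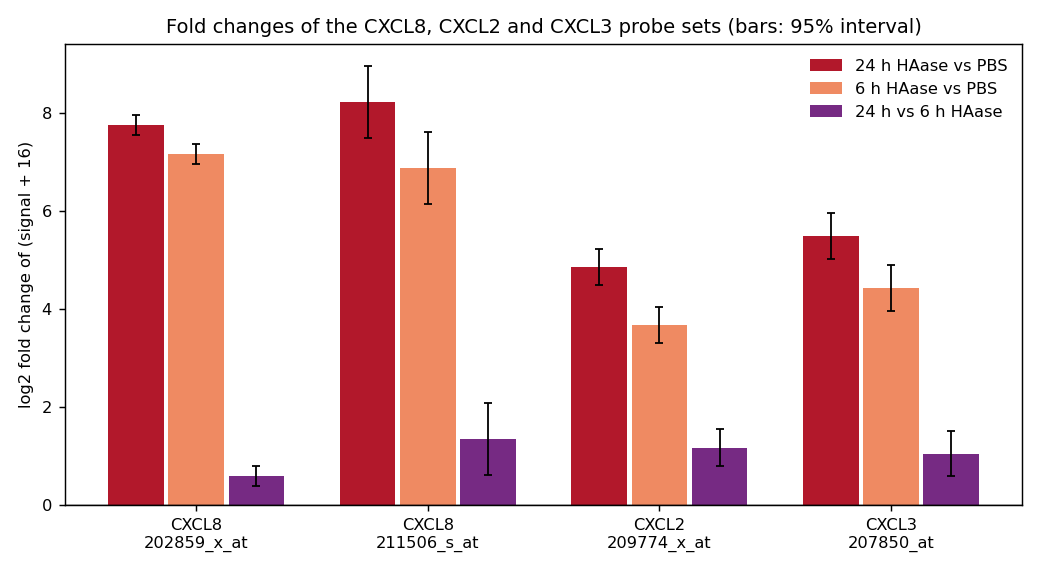
Model log2 fold changes of (signal + 16) for the 4 called chemokine probe sets, with 95% intervals, for HAase 24 h against PBS, HAase 6 h against PBS and HAase 24 h against 6 h. The values lie between 3.68 and 8.23 against PBS and between 0.60 and 1.35 at 24 h against 6 h. The heights for 211506_s_at against PBS depend on the pseudocount, because its PBS arrays lie at or below the control level.

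CXCL1, which acts mainly through CXCR2, stayed at the control level. Its probe set 204470_at read 69.5, 35.1 and 35.9 on the HAase 24 h arrays and 38.4, 30.6 and 32.3 on the HAase 6 h arrays, against 23.5, 28.8 and 30.5 on the PBS arrays. Each HAase group lay just above PBS without overlap, by mean differences smaller than the range of the control level over the arrays, and HAase 24 h replicate 1 was the only array above its own control. No fold change is given, because PBS and HAase 6 h have only upper bounds and HAase 24 h has 1 measured array. The probe set was not called at 24 h (limma adjusted p = 0.101, and 0.137 without that array), at 6 h (0.521) or between the times (0.335).

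CXCL5 and CXCL6, which also attract neutrophils, were at or below the control level on all 9 arrays. The CXCL5 probe set 215101_s_at read 24.9, 20.5 and 25.8 on the HAase 24 h arrays and 1.81, 5.22 and 12.9 on the HAase 6 h arrays, against 16.8, 15.9 and 9.71 on the PBS arrays. Probe set 214974_x_at of CXCL5 ranged over 16.7 to 22.9 at 24 h, 7.72 to 19.9 at 6 h and 4.06 to 12.0 in PBS. Probe set 207852_at of CXCL5 ranged over 1.09 to 16.8 at 24 h, 9.16 to 14.05 at 6 h and 0.996 to 2.37 in PBS. For CXCL6, probe set 206336_at read 37.0, 10.2 and 30.6 on the HAase 24 h arrays and 7.75, 21.9 and 10.0 on the HAase 6 h arrays, against 3.95, 14.6 and 1.65 on the PBS arrays. No fold change is given for these 4 probe sets, since every group has only an upper bound. A signal this low says that the transcript was not detectable with these probes, not that it was absent.

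Genes whose pattern was most like that of each member were found by Pearson's r of log2(signal + 16) over the 9 arrays, a description in which the 9 points fall into the 3 groups and share the array scaling. For CXCL8 these were PHLDA1 (r = 0.9999), the oncostatin M receptor gene OSMR (0.9992) and the calcium pump gene ATP2B1 (0.9989). CXCL2 was most like the cytokine gene IL1B (r = 0.9983), the ETS factor gene ELK3 (0.9983) and the anti-apoptotic gene BCL2A1 (0.9972). CXCL3 was most like the ubiquitin ligase gene HERC4 (r = 0.9965), the adhesion receptor gene ADGRG1 (0.9957) and the metallothionein gene MT1X (0.9957). For CXCL1, whose values were at the control level, the nearest were ABI1 (r = 0.944), DNAJA4 (0.908) and PGM2 (0.906). Among the members, r was 0.984 between CXCL8 and CXCL2, 0.989 between CXCL8 and CXCL3, and 0.988 between CXCL2 and CXCL3, against 0.570 between CXCL8 and CXCL1.

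CXCR1 and CXCR2, the receptors through which these chemokines act, were at or below the control level apart from CXCR1 on 1 array. CXCR2 was at or below the control level on all 9 arrays, with group means of 10.6 at 24 h, 9.20 at 6 h and 3.35 in PBS. CXCR1 exceeded it on 1 HAase 6 h array, with means of 14.7 at 24 h, 24.3 at 6 h and 16.1 in PBS. The decoy receptor gene ACKR1 averaged 102.7 at 24 h, 157.4 at 6 h and 116.0 in PBS and was not called at 24 h (log2 fold change -0.21, limma adjusted p = 0.634) or at 6 h (0.39, 0.371). PPBP, a platelet chemokine with the same motif, exceeded the control on 1 HAase 24 h array and no other. Counted by each gene's brightest probe set, 1 of these 4 genes was tested and none was called.

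Of the 9 CXC chemokine genes without the motif 4 were tested, with 1 higher and 1 lower both at 24 h and at 6 h, and none higher and 2 lower at 24 h relative to 6 h. Counted in the same way, 15% of all 14831 genes tested were higher and 19.5% lower at 24 h, 12.7% and 22.8% at 6 h, and 15.7% and 10.8% at 24 h relative to 6 h. CXCL12, a chemokine that stromal cells make constitutively, averaged 404.0 ± 18.0 at 24 h, 2509 ± 160 at 6 h and 3698 ± 141 in PBS (SD, n = 3 each). It was 8.84-fold lower at 24 h and 1.47-fold lower at 6 h (limma adjusted p = 1.21e-07 and 8.91e-04), and lower at 24 h than at 6 h (log2 -2.59, 2.39e-06). CXCL10, an interferon-induced chemokine, averaged 35.0 ± 11.2 at 24 h, 109.3 ± 64.3 at 6 h and 67.5 ± 9.07 in PBS (SD, n = 3 each). It was lower at 24 h than at 6 h (log2 -1.19, limma adjusted p = 0.0420), with 1 of 3 HAase 24 h arrays above the control. CXCL16, which also exists as a membrane-bound form, averaged 105.5 ± 6.53 at 24 h, 92.2 ± 8.15 at 6 h and 46.4 ± 10.1 in PBS (SD, n = 3 each). It was 1.96-fold and 1.75-fold higher (limma adjusted p = 7.90e-04 and 0.00233), from a level above the control on 1 of 3 PBS arrays.

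The regulators of the family were counted by each gene's brightest probe set, to be read against the shares of all genes just given. The medians of all genes were -0.02, -0.08 and 0.05 on the log2 scale in these comparisons. NF-kappaB is held in the cytoplasm by inhibitors until their kinases are activated. Of 14 tested genes for its subunits, kinases and inhibitors, 8 were higher and 2 lower at 24 h, and 11 were higher and none lower at 6 h, with medians of 0.34 and 0.72. At 24 h relative to 6 h none was higher and 7 were lower, where the tested CXCL8, CXCL2 and CXCL3 probe sets were higher.

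RELB, an NF-kappaB subunit, averaged 293.1 ± 24.5 at 24 h, 642.2 ± 26.3 at 6 h and 78.5 ± 16.1 in PBS (SD, n = 3 each), 3.30-fold and 7.03-fold higher after HAase. NFKBIZ, a nuclear cofactor of NF-kappaB, was 2.78-fold higher at 24 h and 5.19-fold at 6 h. The feedback inhibitor genes TNFAIP3 (1.37-fold at 24 h, 2.80-fold at 6 h) and NFKBIA (1.33-fold and 2.31-fold) also rose. In limma the largest adjusted p among these 4 was 0.0210. All 4 were lower at 24 h than at 6 h, by log2 values between -0.79 and -1.09 (limma adjusted p at most 6.90e-04).

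AP-1 factors are dimers of FOS and JUN family proteins, and C/EBP factors also bind the CXCL8 promoter. Of 10 tested genes, 4 were higher and 3 lower at 24 h, and 6 were higher and 1 lower at 6 h, with medians of 0.49 and 1.20. At 24 h relative to 6 h none was higher and 7 were lower. FOSL1 averaged 2435 ± 112 at 24 h, 2196 ± 146 at 6 h and 346.2 ± 22.1 in PBS (SD, n = 3 each), 6.77-fold and 6.10-fold higher, and its 24 h and 6 h values did not pass the test of their difference (log2 0.15, limma adjusted p = 0.231). FOS was at or below the control level on all PBS arrays and was at least 4.33-fold higher at 6 h (limma adjusted p = 0.00107). The filter kept FOS only through its HAase arrays, since its PBS mean was 10.5. Its p-values and its place in the counts are therefore a description. At 24 h FOS was above the control on 2 of 3 arrays, averaging 66.2 ± 43.9 (SD, n = 3), and passed the test (limma adjusted p = 0.0460), with no firm size. JUNB rose 2.48-fold at 24 h and 5.08-fold at 6 h. FOSB rose 4.36-fold at 6 h, from a level above the control on 1 of 3 PBS arrays, and gave 0.99 on the log2 scale at 24 h (limma adjusted p = 0.0832). CEBPD fell by 0.99 on the log2 scale at 24 h and rose by 1.11 at 6 h.

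IL1 and TNF are the classical inducers of this family. Of 14 tested genes for their signalling and that of IL17 and Toll-like receptors, 6 were higher and 2 lower at 24 h, and 8 were higher and none lower at 6 h, with medians of 0.15 and 0.51. At 24 h relative to 6 h 2 were higher and 8 lower. IL1B averaged 12685 ± 8.88 at 24 h, 5986 ± 108 at 6 h and 418.9 ± 41.9 in PBS (SD, n = 3 each), and was 13.8-fold higher at 6 h than in PBS. Like CXCL2 and CXCL3, it was higher at 24 h than at 6 h (log2 1.08, limma adjusted p = 8.8e-05).

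The gene of the IL1 receptor antagonist, IL1RN, ran the other way between the times. It averaged 655.6 ± 38.0 at 24 h, 2497 ± 98.0 at 6 h and 104.0 ± 20.0 in PBS (SD, n = 3 each), 5.65-fold and 21.1-fold higher. IRAK2, a kinase of the IL1 receptor complex, was 3.89-fold higher at 24 h and 5.09-fold at 6 h. IL1RAP, the accessory chain of the IL1 receptor, was 1.69-fold and 3.87-fold higher. The TNF gene itself lay at or below the control level on all 9 arrays, and IL1A was not called (log2 0.10 at 24 h and -0.08 at 6 h, limma adjusted p = 0.719 and 0.762).

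Of 8 tested genes for proteins that bind AU-rich elements or direct mRNA decay, 2 were higher and 2 lower at each time, with medians of -0.02 and 0.02, and at 24 h relative to 6 h 1 was higher and 1 lower. ZFP36 was 1.33-fold higher at 24 h and 1.66-fold at 6 h, and ZFP36L1 was 1.32-fold and 1.95-fold higher. ZFP36L2 was 1.65-fold lower at 24 h and 1.84-fold lower at 6 h, and TIA1 was 1.31-fold and 1.68-fold lower. The largest limma adjusted p of these 4 genes was 0.0355. The stabilising factor gene ELAVL1 gave -0.07 and -0.01 (limma adjusted p = 0.437 and 0.902).

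**Figure D4:**
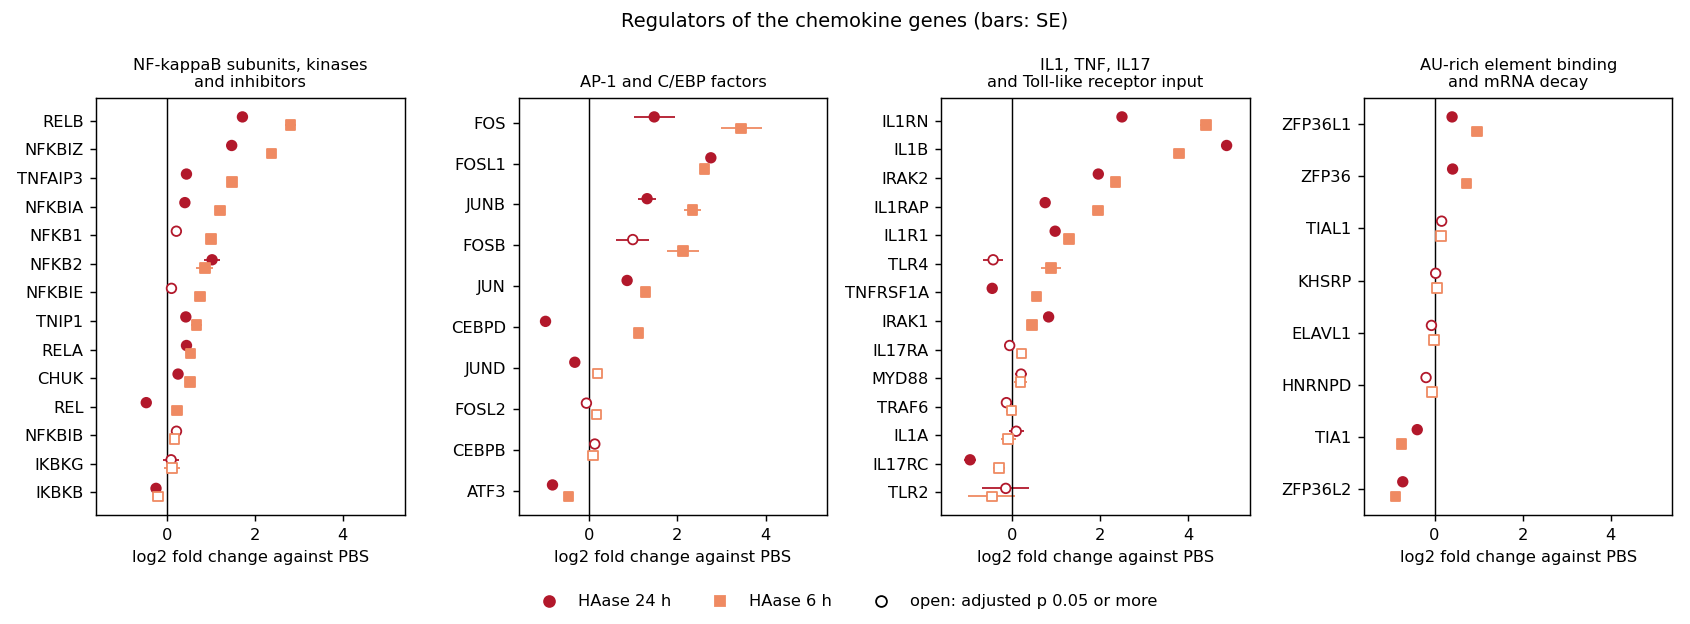
Model log2 fold changes against PBS with SE for each tested gene of 4 regulator lists, at HAase 24 h (circles) and HAase 6 h (squares). Filled symbols passed the test. In the NF-kappaB panel the squares lie right of the circles for RELB, NFKBIZ, TNFAIP3 and NFKBIA, and in the third panel the circle of IL1B lies right of its square.

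The kappa-B letters of the chemokine promoters were also found in those of 147 other gene symbols, of which 67 were tested. Of these 67, 12 (17.9%) were higher and 17 (25.4%) lower at 24 h, and 13 (19.4%) were higher and 19 (28.4%) lower at 6 h. At 24 h relative to 6 h, 9 (13.4%) were higher and 19 (28.4%) lower. Their median log2 fold changes were -0.04, -0.01 and -0.03. Over all genes the shares were 15% and 19.5% at 24 h, 12.7% and 22.8% at 6 h, and 15.7% and 10.8% at 24 h relative to 6 h. No test of the list was made.

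The labelled cell type was checked against 7 liposarcoma and adipocytic markers. MDM2 and CDK4, the amplified genes of many liposarcomas, averaged 1036 and 7266 at 24 h, 1050 and 7600 at 6 h, and 985.8 and 7786 in PBS. The adipocytic genes had lower means after HAase: PPARG 2014 at 24 h, 4088 at 6 h and 5613 in PBS, CEBPA 1002, 793.6 and 7089, FABP4 26097, 31931 and 33295, PLIN1 117.6, 765.9 and 1749, and ADIPOQ 38.7, 371.2 and 926.0 in the same order. Above the control level were 6 of the 7 on all HAase 24 h arrays, ADIPOQ being the exception, and 7 of 7 on all HAase 6 h and all PBS arrays. The summed signal of the list ran from 34954 to 39610 at 24 h, from 45366 to 47782 at 6 h and from 56372 to 58310 in PBS, without overlap. This sum, which includes MDM2 and CDK4, was thus lower where CXCL8, CXCL2 and CXCL3 were higher. The mean of CEBPA was lowest at 6 h, unlike those of the other adipocytic genes, which were lowest at 24 h.

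Leukocytes also make CXCL8. Of 9 leukocyte markers, 5 were above the control on all 3 arrays at 24 h, 4 at 6 h and 5 in PBS, namely ITGAM, LCP1, S100A8 and S100A9 in every group and CSF3R at 24 h and in PBS. PTPRC, LYZ and FCGR3B were above it on no array, and CD14 on none at 6 h. The summed signal of the list ran from 995.4 to 1119 at 24 h, from 1496 to 1641 at 6 h and from 527.8 to 547.8 in PBS, without overlap. This sum leans on S100A8 and S100A9, which had the largest means of the list in every group. By contrast, ITGAM, CSF3R, CD14, LYZ and FCGR3B had their lowest means at 6 h, and PTPRC and LCP1 had theirs in PBS. Means of S100A8, S100A9 and LCP1 were 199.5, 451.6 and 147.7 at 24 h, 666.8, 640.0 and 96.9 at 6 h, and 121.4, 110.5 and 75.0 in PBS. ITGAM averaged 80.5 at 24 h, 61.4 at 6 h and 74.0 in PBS, and CSF3R 79.8, 41.0 and 73.4 in the same order.

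Of 6 epithelial markers, KRT8 was above the control on all 3 arrays of every group and KRT5 on all 3 at 6 h and in PBS, while EPCAM, CDH1 and KRT19 were above it on none. The summed epithelial signal was 222.9 to 302.6 at 24 h, 264.7 to 343.5 at 6 h and 212.5 to 339.7 in PBS, with overlap. Of 5 endothelial markers, PECAM1 was above the control on all 3 arrays of every group, averaging 348.8 at 24 h, 315.7 at 6 h and 236.1 in PBS, and CDH5 and TEK on none. The endothelial sum was 420.3 to 442.4 at 24 h, 373.9 to 427.2 at 6 h and 276.7 to 341.9 in PBS, where both HAase groups lay above PBS.

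RNA quality was read from the log2 ratio of 3' over 5' signal. For GAPDH this ratio was -0.2068 to -0.0231 at 24 h, -0.0564 to 0.0381 at 6 h and -0.0169 to 0.0411 in PBS. The GAPDH ranges at 24 h and in PBS did not overlap. For ACTB the ratio was 1.3839 to 1.6157 at 24 h, 1.1375 to 1.4998 at 6 h and 1.5568 to 1.6954 in PBS. The ACTB ranges at 6 h and in PBS did not overlap. The part of the marker and RNA quality values in the chemokine results was not tested. In bulk samples, fewer cells of a type and less RNA per cell cannot be told apart.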

How the data were processed

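The deposited table holds signal intensity per probe set on a linear scale, which the authors exported from CHP files of the Affymetrix software according to the design text. How probes were summarised is not given in the sources used here. A mean trimmed by 2% at each end lay at about 500.07 on every array, so arrays had been scaled. Of 54675 probe sets, 62 were controls, 41091 had 1 gene symbol, 1801 had several and 11721 had none in the platform annotation. Those with 1 symbol were analysed.

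Signals were used as log2(signal + 16). Probe sets whose mean over the 9 arrays reached the 30th percentile entered lmFit and eBayes of limma (version 3.58.1, under R 4.3.3) with 1 mean per group and a shared spread, and p-values were adjusted by Benjamini-Hochberg over all 28764 within a comparison. All adjusted p-values are from this fit. A group at or below the brightest Bacillus control on all 3 arrays was set to that control level on the log2 scale for bounds written "at least". The fit was tested on simulated data. No 2 arrays were duplicates: arrays of a group correlated at r = 0.9839 to 0.9865 across probe sets.

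For each pathway list up to 4 called genes were named by the size of their largest change against PBS, each by its brightest probe set, and for each member the 3 most similar genes. ELAVL1, CEBPD, IL1A, CXCL10, TNF and the receptors are named outside that rule, after their values were seen. The members and lists were chosen with earlier results of these data known. BCL3 and ZC3H12A had no probe set with a single symbol.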

Additional observations from a re-analysis of the deposited data

Results flagged for a closer look

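The HAase groups of 24 h and 6 h differed for 4 chemokine probe sets, by the comparison of the times in limma. No PBS group was collected at 6 h. A difference in the effect of HAase therefore cannot be told apart from one of harvest time. The log2 difference, 24 h minus 6 h, was 0.60 for CXCL8 202859_x_at (adjusted p = 0.00257), 1.35 for CXCL8 211506_s_at (0.0192), 1.06 for CXCL3 207850_at (0.00793) and 1.18 for CXCL2 209774_x_at (0.00168). All 3 arrays at 24 h lay above all 3 at 6 h for each of them. Of all probe sets tested, 38.9% had no overlap between these groups, in either direction. The filter kept CXCL8 211506_s_at only through its HAase arrays, so its p-value is a description, and its call was lost in 5 of the alternative settings.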

How the results depend on the processing

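Every alternative was set with earlier results of these data known. Over the 19 alternatives the 5 tested chemokine probe sets gave 276 values. Of these, 271 kept their direction and their side of the threshold, 5 lost the call and none reversed. Many of the values could not reverse. Changing the filter or the variance model, adding the replicate block or taking 1 probe set per gene leaves a log2 fold change as it was. So does leaving out an array of the group outside the comparison. The 5 lost calls were all those of CXCL8 211506_s_at between 24 h and 6 h already given. Against PBS, CXCL8 202859_x_at ranged from 7.26 to 7.96 on the log2 scale at 24 h and from 6.66 to 7.36 at 6 h, CXCL3 from 4.67 to 5.90 and from 3.64 to 4.84, and CXCL2 209774_x_at from 4.21 to 5.15 and from 3.07 to 3.96, in each case lowest with a pseudocount of 64 and highest with 1. The number of probe sets called at 24 h against PBS was 8740, and 5593 with 1 probe set per gene, where 13842 instead of 28764 were tested. Without a filter 5 chemokine probe sets were called at 24 h, 5 at 6 h and 6 between the times: CXCL2 1569203_at was added in each comparison and CXCL5 215101_s_at between the times, both with most arrays at or below the control level. With 1 probe set per gene, or the mean of a gene's probe sets, 3 genes were called in each comparison. Leaving out each array in turn gave 4 chemokine probe sets against PBS and 3 to 4 between the times. Same-numbered arrays did not deviate together (r between -0.047 and 0.048 over 9 pairs), so no pairing by number was seen, which does not exclude it. The replicate block gave 7763, 7735 and 5234 probe sets called, and 4 chemokine probe sets in each comparison. What limits these results is signal over background: with PBS near the control level, the size of a rise from it is uncertain.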

Other observations

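The order of protein-coding genes along chromosome 4 in the RefSeq table, read from CXCL8 to CXCL2, was CXCL8, CXCL6, PF4V1, CXCL1, PF4, PPBP, CXCL5, CXCL3 and CXCL2. This order was looked up after the values were seen. The genes with a signal far above the control level after HAase, CXCL8 at one end and CXCL3 and CXCL2 at the other, thus flank 6 genes at or near it. PF4, a platelet chemokine gene, averaged 32.8 at 24 h, 38.4 at 6 h and 39.1 in PBS, and its paralog PF4V1 averaged 6.57, 9.48 and 4.59 in the same order. PPBP averaged 31.3 at 24 h, 1.61 at 6 h and 1.997 in PBS.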
